A study of Mus musculus with 12 samples.

Results

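Histone methylation and chromatin remodelling enzymes were examined in RNA of the ventral hippocampus, a brain region that shapes anxiety and mood, from male C57BL/6J mice. The genes were taken by name: every symbol of the KMT2 and KMT5, KDM1 to KDM8, SETD, EHMT, SMARC, CHD1 to CHD9 and ARID1 to ARID5 families with at least 10 counts in at least 3 of the 12 libraries. This gave 65 members of 67 symbols with a matching name, among 23183 gene symbols in all. Arid3c, with at most 2 counts in any library, and the Smarca5 pseudogene Smarca5-ps, with at most 6, lay under the count minimum. Kdm4d, with 6 to 21 counts, lay just inside it. All 65 members passed the filter on low counts and were tested among 14541 genes. The files list Kmt5a under its older symbol Setd8.

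All mice were wild type and 8 weeks old at the start, and each of the 4 groups held 3 mice, named here by the numbers in their labels (12 and 19 occur in 2 groups each and were read as numbers within a group). Control mice (C, mice 2, 8 and 12) had no treatment. Sedentary stress-susceptible mice (SS, mice 18, 19 and 21) had been restrained in tubes for 2 hours a day over 14 days. Stress-susceptible mice given a running wheel after the same restraint were divided by the labels into those with an effective response to running (SES, mice 9, 10 and 12) and those with an ineffective one (SER, mice 6, 19 and 20). The titles give 14 days of wheel running and the protocol 4 weeks. The labels state neither how susceptibility nor how response was scored, and every running mouse had also been stressed, so running without stress was not analysed here.

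Enzymes of this kind decide how tightly DNA is packed around histones. Methyltransferases of the KMT2 and SETD1 families place methyl groups on lysine 4 of histone H3 at active promoters and enhancers, EHMT1 and EHMT2 methylate lysine 9 of H3 at silenced genes, and KDM enzymes remove such marks. SMARC, ARID1 and CHD proteins belong to machines that use ATP to slide or evict nucleosomes, and loss of 1 copy of many of these genes causes human neurodevelopmental syndromes.

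Libraries held 9323607 to 15707516 counts, and several RNA groups differed between them. Nuclear noncoding RNAs were high in SS mice 19 and 21, where the summed level of Malat1, Meg3, Neat1, Snhg11 and Miat was 9905 and 11449 CPM (a gene's counts scaled to the size of its library), against 971 CPM in SS mouse 18, 848 to 1334 CPM in C and 1648 to 3553 CPM in the running mice. All 5 of these RNAs passed the test in SS against C, with a median log2 fold change of 2.79. Choroid plexus RNA, led by Ttr, was high in C mouse 2 and SS mouse 18 (Ttr at 3546 and 5095 CPM), in all SES mice and in SER mouse 19. Summed markers of the neighbouring thalamus (Tcf7l2, Prkcd and Rora) were also highest in C mouse 2 and SS mouse 18, at 260 and 205 CPM. They lay at 74.5 and 74.0 CPM in SS mice 19 and 21, at 125 and 105 CPM in C mice 8 and 12 and at 101 to 118 CPM in the running mice. In SS against C, 0 of these 3 were called. Summed oligodendrocyte markers (Mbp, Mog, Mag and Opalin) lay at 2117 and 2053 CPM in SS mice 19 and 21 and at 6592 CPM in SS mouse 18, above the 3554 to 5885 CPM of C. Of these 4, Opalin fell in SS, SES and SER against C, and the other 3 were not called. Dentate granule cell markers (Prox1, C1ql2 and Dsp) summed to 90.0 to 131 CPM in C and 153 to 209 CPM in SS, with no overlap, and C1ql2 rose. CA1 pyramidal cell markers (Wfs1, Pou3f1, Man1a and Spink8) summed to 185 to 259 CPM in C, 147 to 180 CPM in SS and 245 to 290 CPM in the running mice, so SS lay below all others, and Pou3f1 fell in SS against C and rose in SER against SS. Neuron markers (Snap25, Rbfox3 and others) were high in all libraries, with 0 of 6 called in SS against C. Summed, they lay at 6123 to 6591 CPM in C, with SS overlapping, and at 5260 to 6085 CPM in the running mice. Summed astrocyte markers lay at 4495 to 5170 CPM in C and 4484 to 4792 CPM in SS. They lay at 4851 to 6081 CPM in SES and 6284 to 7654 CPM in SER. Summed microglia markers lay at 199 to 209 CPM in C and 242 to 268 CPM in SER, with SS and SES overlapping C. In SER against C, 1 of 5 astrocyte and 1 of 4 microglia markers were called higher. The part of these cell types and RNAs in the results below was not tested unless a value is given. In bulk tissue fewer cells of a type and less RNA per cell cannot be told apart.

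The comparison of SS with C asks how the hippocampus of stress-susceptible sedentary mice differs from that of untreated mice. Of the 65 members, 9 were higher in SS, 0 were lower and 56 did not pass the test (edgeR quasi-likelihood test, adjusted p under 0.05 over all genes). The 9 were Setd1a, Kmt2b, Kdm6b, Setd5, Ehmt1, Ehmt2, Smarca4, Chd4 and Chd2. That is 13.8% of the members, where 9.83% of all genes tested were called, 5.21% higher and 4.63% lower. By sign alone, 59 of 65 members had a positive log2 fold change, with a median of 0.27, while 7587 of 14541 genes did so, with a median of 0.02. At an unadjusted p under 0.05, 25 members were higher and 1 was lower, against 15.2% and 13% of all genes. In 19 members all SS mice lay above all C mice and in 3 all lay below, against 12.7% and 14.2% of all genes. The call count rested on single libraries. In edgeR fits it was 0 without C mouse 8, SS mouse 19 or SS mouse 21, where 0% of all genes were called, and 0 without C mouse 12, where 0.528% were. It was 3 without C mouse 2, where 5.75% of all genes were called. Without SS mouse 18 it was 33, 31 higher and 2 lower, where 13.6% of all genes were higher and 12.2% lower. A fit of these 6 mice alone called 0 members and 0% of all genes, and counting only the most abundant transcript of each gene gave 4 members and 4.05% of all genes.

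**Figure D1:**
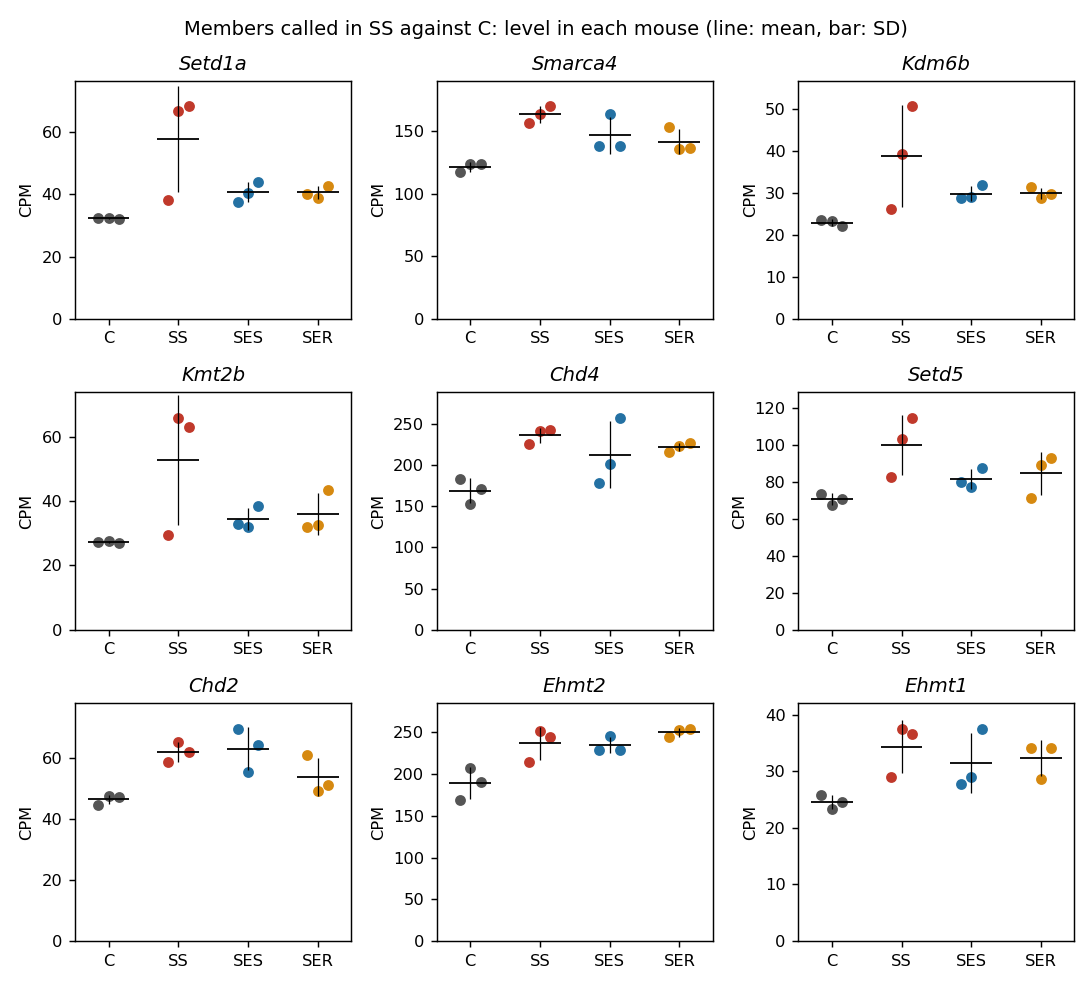
Level of the 9 members called higher in SS than in C, in CPM on axes that start at 0, with 1 point per mouse, the mean as a line and the SD as a bar (3 mice a group). For Setd1a, Kmt2b and Kdm6b, SS mice 19 and 21 lie well above SS mouse 18, while for Smarca4, Chd4 and Chd2 the 3 SS mice lie together above all C mice.

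For 4 of these 9 genes the sequence around the transcription start is shown as a description. SETD1 and KMT2B complexes bind unmethylated CG dinucleotides through CXXC domains. Whether such binding had a part in the values of these genes was not tested. The windows are the RefSeq promoter sequences of build GRCm38.p6, 250 bases before to 50 after an annotated start, 5′ to 3′ on the strand of the gene, in lower case with each CG in capitals. The coordinates are chr7:127777139-127777438 (plus strand) for Setd1a, chr9:21615919-21616218 (plus) for Smarca4, chr2:24919560-24919859 (minus) for Ehmt1 and chr6:125095913-125096212 (plus) for the downstream of 2 Chd4 windows.
Setd1a: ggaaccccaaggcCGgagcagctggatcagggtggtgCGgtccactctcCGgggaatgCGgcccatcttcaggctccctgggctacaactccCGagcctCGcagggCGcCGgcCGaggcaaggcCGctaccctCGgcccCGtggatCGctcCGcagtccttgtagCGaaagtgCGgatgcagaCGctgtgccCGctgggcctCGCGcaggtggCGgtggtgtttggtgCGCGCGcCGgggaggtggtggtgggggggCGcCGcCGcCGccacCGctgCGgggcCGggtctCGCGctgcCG
Smarca4: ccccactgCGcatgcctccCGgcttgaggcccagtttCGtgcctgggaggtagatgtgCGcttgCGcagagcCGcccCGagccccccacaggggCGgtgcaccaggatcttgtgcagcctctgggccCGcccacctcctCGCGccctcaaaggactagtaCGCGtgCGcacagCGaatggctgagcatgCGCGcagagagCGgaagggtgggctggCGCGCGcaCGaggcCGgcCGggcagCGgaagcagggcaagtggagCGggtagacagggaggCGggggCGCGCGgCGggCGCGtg
Ehmt1: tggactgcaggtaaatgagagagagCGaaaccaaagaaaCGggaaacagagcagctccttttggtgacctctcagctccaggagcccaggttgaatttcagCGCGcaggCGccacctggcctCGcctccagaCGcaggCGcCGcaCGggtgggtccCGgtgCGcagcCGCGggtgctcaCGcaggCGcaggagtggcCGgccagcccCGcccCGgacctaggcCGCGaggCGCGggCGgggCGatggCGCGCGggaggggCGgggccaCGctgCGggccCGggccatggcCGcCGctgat
Chd4: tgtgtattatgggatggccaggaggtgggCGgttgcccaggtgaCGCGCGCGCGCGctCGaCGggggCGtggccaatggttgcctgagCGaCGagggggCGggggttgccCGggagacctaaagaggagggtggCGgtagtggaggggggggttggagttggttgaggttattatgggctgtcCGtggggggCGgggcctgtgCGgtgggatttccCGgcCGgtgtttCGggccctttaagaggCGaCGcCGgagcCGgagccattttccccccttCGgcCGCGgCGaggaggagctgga
These windows hold 35, 33, 34 and 29 CG dinucleotides. The upstream Chd4 window (chr6:125095731-125096030), not shown, holds 17. The Setd5 window holds 1, so not every member called has a window dense in CG. Of the 65 members, 48 had an entry in the RefSeq table, with 62 windows. The other 17, Kmt2b, Kdm6b and Chd2 among them, had none. The median number of CG dinucleotides was 27 in the member windows, 20 in the windows of all genes tested and 7 in all promoters of the table. The GC box GGGCGG, searched on both strands, was in 72.6% of member windows, in 60.8% of those of all genes tested and in 35.7% of all promoters. It was in the Smarca4, Ehmt1 and Chd4 windows above but not in that of Setd1a. The cAMP response element TGACGTCA was in 0 of 62 member windows and in 2.94% of windows of genes tested. The E-box CACGTG was in 6.45% of member windows and in 9.55% of those of genes tested.

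The H3K4 methyltransferases had the highest log2 fold changes of the larger families. All 8 were positive in SS against C, with a median of 0.60, and 2 passed the test. Setd1a (chr7:127777389-127800122 in build GRCm38.p6, as for all gene positions here), the catalytic subunit of a SET1 complex that writes H3K4 trimethylation at promoters, had 32.3, 32.5 and 32.0 CPM in C mice 2, 8 and 12, while SS mice 18, 19 and 21 had 38.1, 66.9 and 68.3 CPM. It rose by 0.84 ± 0.17 (log2 fold change ± SE, adjusted p = 0.0223). The C mice were within 1 CPM of each other, SS mouse 18 was slightly above them, and the other 2 SS mice were far above. Kmt2b (chr7:30568855-30589056), which methylates H3K4 at CpG-rich promoters and is needed for memory in the adult forebrain, had 27.1, 27.6 and 26.9 CPM in C and 29.4, 65.9 and 63.0 CPM in SS. It rose by 0.96 ± 0.23 (adjusted p = 0.0285), again with SS mouse 18 close to C.

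The other members of that family did not pass the test. Kmt2a (chr9:44803355-44881352), the founding mixed-lineage leukaemia gene, had 102, 90.3 and 92.9 CPM in C and 75.9, 183 and 209 CPM in SS, a log2 fold change of 0.72 ± 0.25 (adjusted p = 0.08). Here SS mouse 18 was below every C mouse and the other 2 SS mice were far above. Kmt2d, an enhancer H3K4 monomethyltransferase and the main Kabuki syndrome gene, had 83.9, 80.0 and 75 CPM in C and 68.6, 148 and 189 CPM in SS, with 0.77 ± 0.25 (adjusted p = 0.063). Its close relative Kmt2c, where SS mouse 18 lay within the range of C, had 62.1, 66.0 and 65.3 CPM in C and 62.4, 102 and 105 CPM in SS. Setd1b and Kmt2e, a family member without known catalytic activity, had 0.41 ± 0.15 and 0.33 ± 0.13. Setd7, which also methylates many non-histone proteins, was at 0.01 ± 0.16. Without C mouse 2 and SS mouse 18, Kmt2a was at 1.09 ± 0.10, Kmt2d at 1.11 ± 0.13, Kmt2b at 1.23 ± 0.15 and Setd1a at 1.05 ± 0.11. That fit leaves out the SS mouse with the lowest level of each of these genes. All 7 KMT2 and SETD1 genes were called higher in it. Its share of all genes called is not given here, but without SS mouse 18 alone 13.6% of all genes were called higher.

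Both H3K9 methyltransferases rose. Ehmt2 (chr17:34898463-34914073), also known as G9a, had 169, 207 and 190.3 CPM in C and 215, 252 and 244 CPM in SS, a change of 0.33 ± 0.09 (adjusted p = 0.0406). Its partner Ehmt1 (chr2:24790769-24919643), the Kleefstra syndrome gene, was the less abundant, with 25.7, 23.3 and 24.6 CPM in C and 28.9, 37.5 and 36.5 CPM in SS, a change of 0.49 ± 0.14 (adjusted p = 0.0471). In both genes every SS mouse lay above every C mouse, SS mouse 18 by the smallest margin. Ehmt2 and Ehmt1 were the calls that changed with the processing most often among the 9, each lost in 17 of 25 alternatives.

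Of the 2 genes listed with H3K36 methylation, Setd5 (chr6:113077262-113153432), a SET domain gene of intellectual disability whose own catalytic activity is debated, rose by 0.51 ± 0.13 (adjusted p = 0.0299), from 73.8, 67.4 and 70.9 CPM in C to 82.8, 103 and 115 CPM in SS. Setd2, the enzyme of H3K36 trimethylation, had 55.6, 50.4 and 43.3 CPM in C and 48.4, 68.6 and 64.4 CPM in SS, with overlapping groups, and did not pass (0.28 ± 0.15, adjusted p = 0.244). Setd4 had the highest log2 fold change of all members, 1.07 ± 0.37, but at 1.59, 1.64 and 2.06 CPM in C and 1.72, 3.92 and 5.43 CPM in SS it rested on 2 libraries of a sparse gene (adjusted p = 0.0776). Setd3, an actin histidine methyltransferase, went the other way in the same 2 libraries, with 183, 185 and 184 CPM in C and 183, 158 and 147 CPM in SS (-0.18 ± 0.09, adjusted p = 0.214). Setd8, the H4K20 monomethyltransferase, was at 0.01 ± 0.16.

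Among the demethylases 1 of 18 passed. Kdm6b (chr11:69398508-69420367), an inducible enzyme that removes H3K27 methylation left by Polycomb, had 23.4, 23.3 and 22.0 CPM in C and 26.2, 39.2 and 50.5 CPM in SS, and rose by 0.76 ± 0.18 (adjusted p = 0.0268). All SS mice lay above all C mice, SS mouse 18 by the least. Its X-linked relative Kdm6a, with 16.7, 14.3 and 13.6 CPM in C and 12.3, 22.7 and 19.5 CPM in SS, had 0.30 ± 0.19 and overlapping groups. The X-linked H3K4 demethylase Kdm5c, a gene of intellectual disability, had 47.0, 53.6 and 47.8 CPM in C and 59.4, 61.2 and 70.6 CPM in SS, every SS mouse above every C mouse, and did not pass (0.36 ± 0.13, adjusted p = 0.0894). Kdm1a, the flavin-dependent demethylase LSD1, had 51.4, 48.1 and 49.5 CPM in C and 50.3, 59.2 and 56.0 CPM in SS (0.15 ± 0.11, adjusted p = 0.402). By family, the 4 KDM5 genes ran from 0.11 to 0.51, the 6 KDM3 and KDM4 genes from -0.31 to 0.33, and the 3 KDM2 and KDM7 genes from 0.14 to 0.33. Kdm4d, the low end of these, had under 2 CPM in every library.

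In the BAF complexes 1 of the 2 ATPases and 0 of 7 core subunits passed edgeR's test. Smarca4 (chr9:21616106-21704230), the ATPase BRG1, had 117, 124 and 123 CPM in C and 156, 164 and 169.5 CPM in SS, and rose by 0.43 ± 0.09 (adjusted p = 0.0231). The 3 SS mice lay close together and clear of every C mouse, SS mouse 18 included. The alternative ATPase Smarca2 (BRM) had 250.4, 252 and 244 CPM in C and 238, 278 and 286 CPM in SS (0.10 ± 0.10, adjusted p = 0.526). The core subunits had a median of 0.12, with 6 positive. Smarcb1, the SNF5 subunit lost in rhabdoid tumours, was at 49.5, 56.7 and 57.7 CPM in C and 58.3, 57.2 and 62.3 CPM in SS (0.12 ± 0.10). Of the DNA-binding ARID subunits, Arid1a had 105, 108 and 93.8 CPM in C and 88.1, 126 and 135 CPM in SS, SS mouse 18 being the lowest of the 6. Arid1b, the Coffin-Siris syndrome gene, had 102, 92.4 and 102 CPM in C and 113, 119 and 111 CPM in SS, with every SS mouse above C and an adjusted p of 0.0984.

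All 9 CHD genes had positive log2 fold changes, and 2 passed. Chd4 (chr6:125095980-125130591), the main ATPase of the NuRD complex, had 183, 153 and 171 CPM in C and 225, 241 and 242 CPM in SS, and rose by 0.48 ± 0.12 (adjusted p = 0.0285). Chd2 (chr7:73426652-73541746), a gene of epileptic encephalopathy, had 44.7, 47.5 and 47.3 CPM in C and 59.0, 65.4 and 62.1 CPM in SS, and rose by 0.42 ± 0.11 (adjusted p = 0.0343). In both, SS mouse 18 stood with the other SS mice and above every C mouse. Chd7, the CHARGE syndrome gene, had 17.5, 16.5 and 18.5 CPM in C and 21.8, 21.6 and 25.9 CPM in SS and narrowly missed the threshold (adjusted p = 0.059). Chd8, an autism gene, had 103, 86.9 and 87.7 CPM in C and 85.3, 126 and 129 CPM in SS, with SS mouse 18 below all C mice (0.29 ± 0.14, adjusted p = 0.18). The neuronal NuRD ATPase Chd5 was at 0.19 ± 0.17 and Chd3 at 0.20 ± 0.14.

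The ISWI-type ATPase Smarca5 (SNF2H, chr8:80699943-80739459) was the member with the lowest log2 fold change. It had 104, 107 and 119 CPM in C and 103, 76.0 and 82.9 CPM in SS, every SS mouse below every C mouse, by less than 1 CPM for SS mouse 18, and it did not pass the test (-0.33 ± 0.12, adjusted p = 0.0811). Without C mouse 2 and SS mouse 18 it was called lower (-0.52 ± 0.11), as was Setd3 (-0.29 ± 0.09). The share of all genes called in that fit is not given here, but without SS mouse 18 alone 12.2% were called lower. The PBAF subunit Arid2, also without overlap, had 46.9, 48.0 and 50.6 CPM in C and 43.8, 45.3 and 44.7 CPM in SS (-0.12 ± 0.09). Among the 6 other ARID genes, which are transcription factors and corepressor subunits, 0 were called by edgeR, and the log2 fold changes ran from -0.10 to 0.74.

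**Figure D2:**
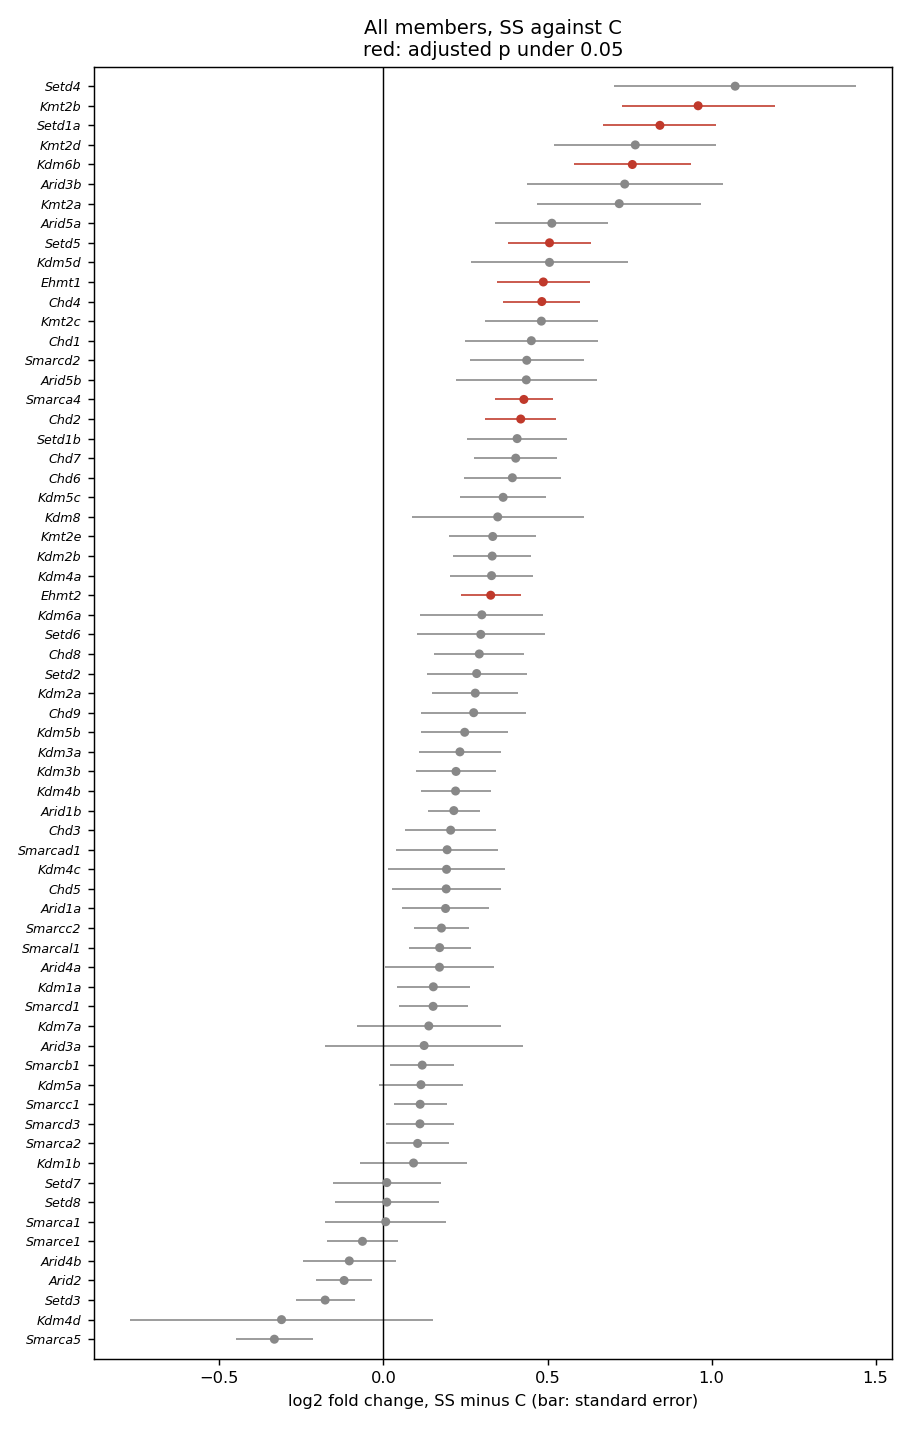
Log2 fold change of SS against C for all 65 members, ordered by size, with the standard error as a bar and the 9 members called (adjusted p under 0.05) in red. Of the 65 points 59 lie right of 0, and the lowest is Smarca5 at -0.33.

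Taken mouse by mouse, the SS group was not uniform. The median over the 65 members of the log2 difference from the C mean was -0.01 in SS mouse 18, 0.39 in SS mouse 19 and 0.36 in SS mouse 21, and between 0.16 and 0.31 in the 6 running mice. For the 7 KMT2 and SETD1 genes the SS medians were -0.03, 0.90 and 1.08, while for the 12 BAF genes they were 0.07, 0.18 and 0.19. SS mouse 18 had 25 of 65 members above all C mice and 22 below, where 32.2% and 31.2% of all genes did so in that mouse. SS mouse 19 had 52 above and 5 below, against 34.7% and 34.2% of all genes. SS mouse 21 had 54 above and 5 below, against 34.7% and 34.0%. Malat1 moved with the members: it was at 505, 263 and 489 CPM in C, while SS had 505, 3761 and 5257 CPM and the running mice had 988 to 1974 CPM. With Malat1 as a covariate 0 members and 0% of all genes were called by edgeR in SS against C, and the median of the members was -0.0036, with 31 of 65 positive. Malat1 and the group are tied together in SS mice 19 and 21, so within that fit the 2 cannot be told apart for those mice. With Ttr as a covariate 12 members were called, and 13.1% of all genes.

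**Figure D3:**
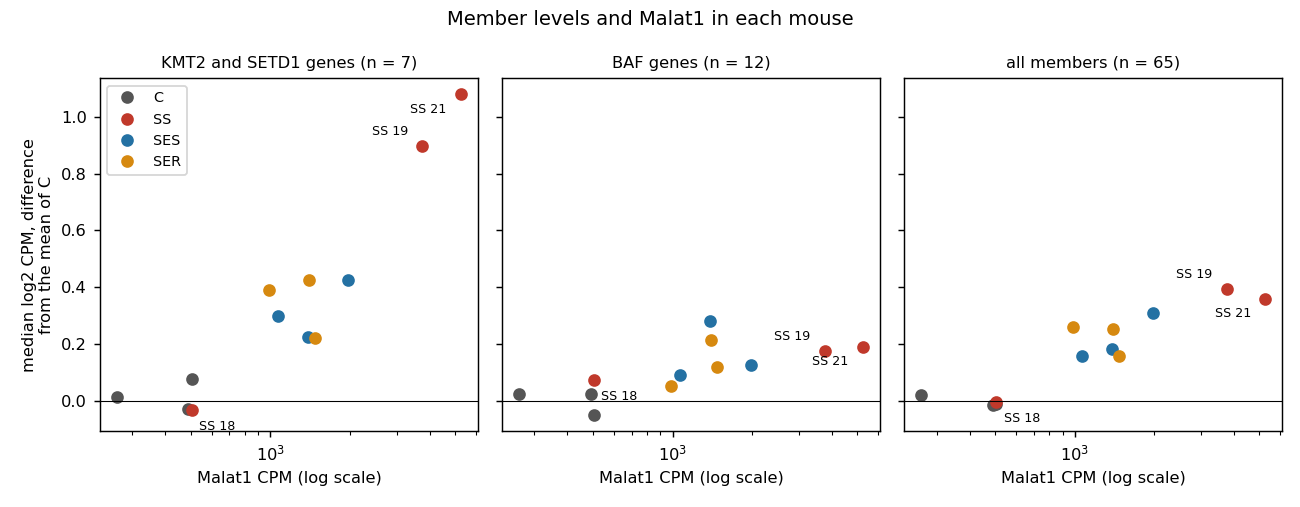
Median log2 difference from the C mean, per mouse, of the 7 KMT2 and SETD1 genes, the 12 BAF genes and all 65 members (vertical axes) against Malat1 CPM of that mouse on a log axis. In the left panel SS mice 19 and 21 lie at 0.90 and 1.08 and SS mouse 18 lies at -0.03 among the C mice, while in the middle panel the 12 mice lie between -0.05 and 0.28.

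Members also shared long transcripts. Their median length was 5935 bases (1649 to 19823), against 2984 bases for all genes tested. In SS against C the 33 longer members had a median log2 fold change of 0.33 and the 32 shorter members 0.17. Over all genes the 1726 with transcripts at least as long as the members' median had 0.18 and the 12754 shorter ones -0.00. Across genes, Spearman's rho of the log2 fold change with length was 0.28 in the members and 0.28 in all genes, and with GC content 0.35 and 0.33. These are descriptions over genes of the same libraries, and genes are not independent replicates. With each library corrected for GC content and length, 0 members and 0% of all genes were called by edgeR, and the median of the members was 0.14, with 48 of 65 positive.

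**Figure D4:**
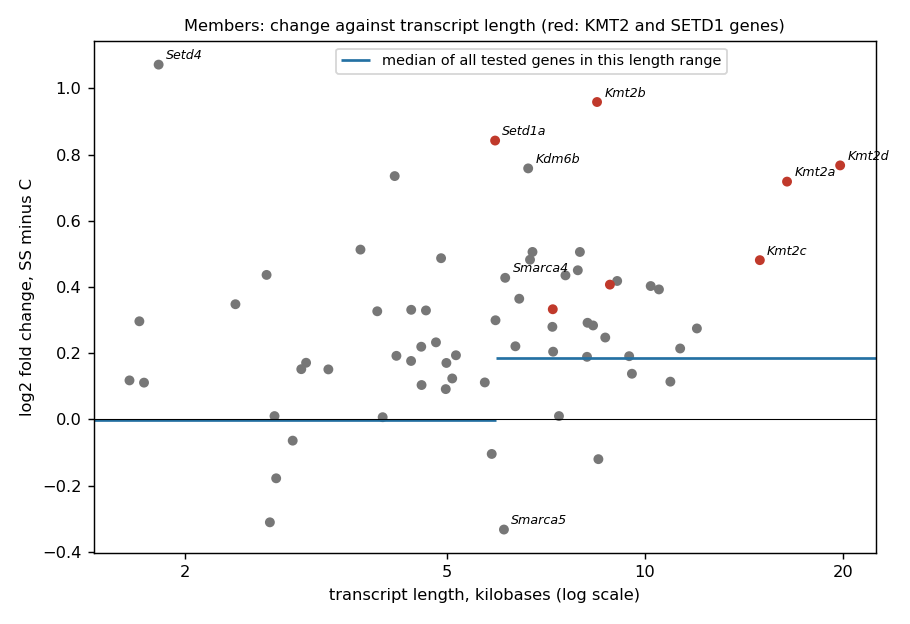
Log2 fold change of SS against C for each member (vertical axis) against the length of its transcript on a log axis in kilobases, with the 7 KMT2 and SETD1 genes in red and blue lines at the median of all tested genes shorter (-0.00) or longer (0.18) than the members' median length. The 4 longest KMT2 transcripts lie between 0.48 and 0.96, above the line, and Setd4, with a short transcript, lies at 1.07.

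Running mice were then compared with controls. In SES against C, 0 of 65 members passed edgeR's test, where 0.179% of all genes did. At an unadjusted p under 0.05, 13 were higher and 0 lower, against 8.27% and 7.91% of all genes. DESeq2's Wald test called 4 members, and 2.83% of all genes, and limma-voom 0 members, and 0.213% of all genes. The direction was again mostly upward, with 59 of 65 positive and a median of 0.19 (0.00 over all genes), and 29 members did not overlap upward and 1 downward, against 12.8% and 13.2%. In SER against C, 1 of 65 passed, 1.54% where 1.19% of all genes did (0.853% higher). At an unadjusted p under 0.05, 18 were higher and 0 lower, against 9.72% and 8.84%, and the median was 0.22 (-0.01 over all genes). There, 31 members lay above C without overlap and 1 below, against 12.6% and 12.7% of all genes. The comparisons with C share the same 3 C mice and are given side by side only.

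Arid1b (chr17:4994297-5347656) was the member called in SER. It had 121, 132 and 138 CPM in SES and 129.9, 129 and 132 CPM in SER, against 102, 92.4 and 102 CPM in C. It rose by 0.40 ± 0.08 in SER (adjusted p = 0.0368) and had 0.41 ± 0.08 in SES (adjusted p = 0.0733). All 6 running mice lay above all 3 SS mice as well as all C mice. The SER call ended when any C mouse, any SER mouse, SS mouse 19, SS mouse 21 or SES mouse 9 was left out, and 6 members were called without SS mouse 18, where 5.39% of all genes were. Next in SER were Ehmt2, at 244, 252 and 254 CPM (0.40 ± 0.09, adjusted p = 0.0504), and Smarcc2, a core BAF subunit also called BAF170, at 388, 394 and 430.3 CPM against 293, 344 and 310.3 CPM in C (0.36 ± 0.08, adjusted p = 0.0612). Next in SES were Chd2, at 69.7, 55.6 and 64.3 CPM (0.44 ± 0.11, adjusted p = 0.123), and the H3K9 demethylase Kdm4b, at 66.8, 75.4 and 79 CPM against 54.2, 52.4 and 62.8 CPM in C (0.38 ± 0.11, adjusted p = 0.138).

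The H3K4 methyltransferases and Kdm6b that were high in SS mice 19 and 21 had levels between those mice and C in the runners. Setd1a was at 37.6, 40.6 and 44.0 CPM in SES and 40.2, 38.9 and 42.9 CPM in SER. Kmt2b was at 32.9, 31.8 and 38.3 CPM in SES and 32.0, 32.6 and 43.5 CPM in SER. Kdm6b was at 28.7, 28.9 and 31.8 CPM in SES and 31.3, 28.6 and 29.6 CPM in SER. All 6 runners lay above all C mice and below SS mice 19 and 21 in each of these genes. Kmt2a had 122, 112 and 127 CPM in SES and 127, 116 and 124 CPM in SER. Kmt2d had 99.6, 110.4 and 107 CPM in SES and 112, 92.7 and 103 CPM in SER. For these 2 genes too the runners were above C and below SS mice 19 and 21, while SS mouse 18 was below C.

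Runner values of the other 6 genes called in SS were these. Smarca4 had 138, 163 and 138 CPM in SES and 153, 135 and 136 CPM in SER, SES mouse 10 reaching the level of the SS mice. Chd4 had 178, 201 and 257 CPM in SES and 216, 223 and 227 CPM in SER, with SES mouse 9 inside the range of C. Setd5 had 80.0, 77.2 and 87.8 CPM in SES and 71.6, 89.3 and 93.3 CPM in SER, with SER mouse 6 inside the range of C. For the H3K9 enzyme Ehmt1 the values were 27.8, 29.0 and 37.4 CPM in SES and 34.1, 28.6 and 34.0 CPM in SER, and they overlapped those of SS. Ehmt2 had 229, 246 and 229 CPM in SES and 244, 252 and 254 CPM in SER, above all C mice and overlapping SS. Chd2 had 69.7, 55.6 and 64.3 CPM in SES and 61.0, 49.4 and 51.2 CPM in SER, also above all C mice and overlapping SS. Smarca5, lowest in SS mice 19 and 21, had 110.1, 102 and 98.8 CPM in SES and 102, 85.6 and 100.5 CPM in SER. Its SES values overlapped those of C and SS, while its SER values overlapped those of SS and lay below all C mice. Smarca5 was not called in any of the 6 comparisons.

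Other genes followed for their roles are given as means (± SD, 3 mice). Setd2 was at 49.7 ± 6.16 CPM in C, 60.5 ± 10.6 in SS, 56.0 ± 8.04 in SES and 63.6 ± 7.70 in SER. Kdm1a was at 49.7 ± 1.68, 55.1 ± 4.53, 51.3 ± 5.78 and 53.2 ± 5.66 CPM in the same order. Kdm5c was at 49.5 ± 3.59, 63.7 ± 5.99, 55.5 ± 2.77 and 52.6 ± 10.7 CPM, the SES and SER means, though not every runner, lying nearer to C than to SS. For Smarcb1 the means were 54.6 ± 4.49, 59.3 ± 2.67, 56.5 ± 5.41 and 53.9 ± 2.28 CPM, for Arid1a 102 ± 7.34, 116 ± 24.9, 118 ± 8.91 and 122 ± 7.11 CPM, and for Chd8 92.5 ± 9.13, 113 ± 24.1, 102 ± 7.46 and 101 ± 5.27 CPM. Not one of these 6 genes passed the test in any of the 6 comparisons.

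A set of 12 members, 18.5%, had all 9 stressed mice above all 3 C mice, where 3.64% of all genes and 9.33% of genes with transcripts at least 5935 bases long did. These were Setd1a, Kmt2b, Ehmt1, Ehmt2, Kdm2b, Kdm6b, Smarca4, Smarcc1, Smarcc2, Arid1b, Chd2 and Chd7, so 7 of the 9 members called in SS belong to it and Setd5 and Chd4 do not. No member, 0 of 65, had all 9 below, against 5.1% of all genes and 1.22% of genes with transcripts at least 5935 bases long. For Smarcc1 (BAF155), the margin was narrow, with C at 52.3, 53.0 and 52.9 CPM and the lowest stressed mouse at 54.5 CPM. For Chd7 the highest C mouse was at 18.5 CPM and the lowest stressed mouse at 19.9 CPM. The 9 mice differ from C in restraint, in their label as stress-susceptible and, for 6 of them, in running. The wheel followed the restraint, so age at sampling and time since restraint may differ as well. How the groups were processed in time is not given in the sources used here.

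Running mice were compared with sedentary stressed mice to ask how runners labelled with an effective or ineffective response differed from them. Age at sampling and time since restraint may differ here too, and cannot be told apart from running. In SES against SS, 0 members passed edgeR's test, as did 0% of all genes, and at an unadjusted p under 0.05, 1 was higher and 5 were lower, against 3.93% and 5.08% of all genes. DESeq2's Wald test and limma-voom also called 0 members, and 0.117% and 0% of all genes. In 4 members all SES mice lay above all SS mice and in 2 all lay below, against 6.33% and 5.92% of all genes. The 3 members with the smallest p were Setd1a (-0.51 ± 0.17), Kmt2b (-0.62 ± 0.23) and Arid1b (0.19 ± 0.08), each with an adjusted p of 0.524. In SER against SS, edgeR, DESeq2 and limma-voom called 0 members, where edgeR called 0.0481% of all genes, DESeq2 3.84% and limma-voom 0.055%, and at an unadjusted p under 0.05, 1 was higher and 5 were lower, against 8.42% and 9.79%. Above SS without overlap were 3 members and below it 3, against 8.84% and 8.1%. Its 3 leading members were Smarcd2, a BAF60 subunit (-0.55 ± 0.18, adjusted p = 0.143), Setd4 (-1.16 ± 0.37) and Setd1a (-0.51 ± 0.17). Smarcd2 was at 19.8, 20.8 and 23.2 CPM in SS and 18.1, 13.8 and 11.6 CPM in SER, with no overlap, and at 13.7, 14.9 and 18.5 CPM in C.

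The spread of the SS mice bears on these 2 comparisons. Without SS mouse 18 and C mouse 2, 1 member was higher and 10 were lower in SES against SS, where 3.99% and 5.72% of all genes were. In SER against SS 1 was higher and 12 were lower, where 8.14% and 9.34% of all genes were. Where only SS mouse 18 was left out, 10 members and 8.69% of all genes were called in SES against SS, and 13 members and 16.5% of all genes in SER against SS. Lower in SES were Kmt2a (-0.71 ± 0.09), Kmt2b (-0.91 ± 0.13), Setd1a (-0.73 ± 0.10), Kmt2d (-0.67 ± 0.11) and Kdm6b (-0.59 ± 0.12), and the same 5 were lower in SER, at -0.67 ± 0.09, -0.84 ± 0.13, -0.73 ± 0.10, -0.71 ± 0.11 and -0.58 ± 0.12. The 2 comparisons share their SS mice. Where mouse 18 alone stood for SS, the members leaned the other way, with medians of 0.18 in SES and 0.20 in SER against SS. Which of these SS mice are typical of the group cannot be told from 3 mice.

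No member passed the test between running mice with an effective and an ineffective response. In SES against SER edgeR, DESeq2 and limma-voom called 0 members, where edgeR called 0.0275% of all genes, DESeq2 0.0413% and limma-voom 0.0206%, and at an unadjusted p under 0.05, 0 members were higher and 1 was lower, against 1.77% and 1.95%. Groups did not overlap in 1 member upward and 3 downward, against 5.4% and 5.36%. The median was -0.00 with 31 of 65 positive. The 3 members with the smallest p were Chd3 (-0.32 ± 0.14), Chd2 (0.23 ± 0.11) and the RNA-binding ARID protein Arid5a (-0.35 ± 0.17), each with an adjusted p near 1. Chd3 was at 1223, 839 and 1051 CPM in SES and 1185, 1305 and 1409 CPM in SER, with overlap, and at 936, 1099 and 847 CPM in C and 995, 1193 and 1133 CPM in SS. Arid5a was at 11.5, 10.8 and 12.7 CPM in SES and 17.2, 13.5 and 13.9 CPM in SER, without overlap. Its sign turned when only its most abundant transcript was counted.

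Per length, the members spanned a wide range of levels. Chd3 was the highest, at 152 CPM per kilobase of transcript averaged over the 12 libraries, followed by Smarcc2 at 81.9, Setd3 at 63.5 and Smarca2 at 59.1 CPM per kilobase. Of the enzymes called in SS, Ehmt2 was at 58.1, Chd4 at 31.3 and Smarca4 at 23.3 CPM per kilobase, and Setd1a, Kdm6b and Kmt2b were at 7.23, 4.55 and 4.44. The lowest were Kdm4d at 0.376 and Arid3b at 0.573 CPM per kilobase.

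Counts per transcript were deposited for 19 members with more than 1 RefSeq transcript, 49 transcripts in all. Smarca2, singled out after its values were seen and so given with no test, is described for the makeup of its counts. Its 5921-base transcript was at 148, 154 and 122 CPM in C, 172, 201 and 179 CPM in SS, 203, 202 and 179 CPM in SES and 217, 177 and 199 CPM in SER. The 1962-base transcript made up 40.8, 39.0 and 49.9% of Smarca2 counts in C, 27.9, 27.6 and 37.3% in SS, 32.1, 37.0 and 30.3% in SES and 25, 35.0 and 23.7% in SER. In CPM this transcript overlapped, with 98.1 to 122 in C and up to 119 in SES mouse 10. All 9 stressed mice lay below all C mice in its share of Smarca2 counts, SS mouse 18 included. How often a share separates these mice in this way over all genes was not counted. The pattern in shares was not particular to Smarca2. The share of the 5361-base Arid3a transcript was 96.9 to 100% in C and 0 to 66% in the other 9 mice. Arid3a is sparse, with 40 to 100 counts per library. How the authors divided reads between transcripts that overlap is not given in the sources used here, and the part of that step in the shares was not tested.

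**Figure D5:**
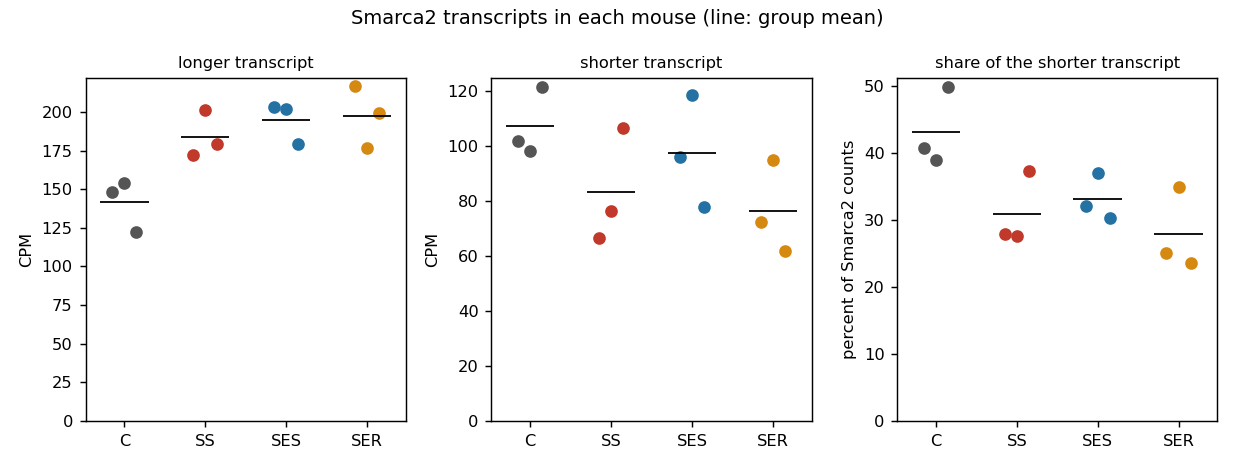
CPM of the longer (5921 bases) and shorter (1962 bases) Smarca2 transcript and percent of Smarca2 counts in the shorter one, with 1 point per mouse and the group mean as a line, on axes that start at 0. In the right panel the C mice lie between 39.0 and 49.9% and the other 9 mice between 23.7 and 37.3%.

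Partners of these enzymes went in both directions. Of 93 genes in 9 lists of complex partners and related enzymes, 8 were higher (8.60%), 4 lower (4.30%) and 81 not called in SS against C, where 5.21% and 4.63% of all genes were called. By sign, 61 of the 93 were positive. Among them 0 were called by edgeR in the other 5 comparisons. The H3K79 methyltransferase Dot1l rose by 1.52 ± 0.36 (adjusted p = 0.0275), from 13.7, 12.7 and 9.96 CPM in C to 11.9, 44.4 and 47.6 CPM in SS, with SS mouse 18 inside the range of C. Srcap, the ATPase that deposits histone variant H2A.Z, rose by 0.60 ± 0.14 (adjusted p = 0.0261), from 84.5, 77.5 and 77.5 CPM to 93.4, 125 and 143 CPM. Of the 13 COMPASS partners of the KMT2 and SETD1 enzymes, Cxxc1, which tethers SETD1 to unmethylated CpG islands, rose by 0.53 ± 0.14, Pagr1a rose by 0.60 ± 0.17 and Dpy30 fell by 0.40 on the log2 scale, with 10 not called. The heterochromatin reader Cbx3 fell, with a log2 fold change of -0.40 ± 0.09 (adjusted p = 0.0247), from 238, 255 and 258 CPM in C to 211, 174 and 184 CPM in SS. The histone chaperone Rbbp4 (-0.28 ± 0.08), shared by PRC2 and NuRD, and the NuRD deacetylase Hdac2 (-0.31 ± 0.09) fell as well, while the NuRD subunit Mta1 rose by 0.34 ± 0.10. Of 18 further BAF genes Gltscr1 (0.60 ± 0.15) and Gltscr1l (0.48 ± 0.14), subunits of the noncanonical BAF complex, rose, and of 9 ISWI partners Baz2a (0.65 ± 0.19) did. Of 7 other JmjC proteins 0 were called.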

How the data were processed

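RNA of the ventral hippocampus was extracted with Trizol and made into libraries with a strand-keeping kit (NEBNext Ultra II Directional), per the labels' protocols. The authors deposited 1 table per mouse of estimated counts per RefSeq transcript, whole numbers and not normalized. TopHat and mouse build mm10 are named per the submitters' processing notes, while the counting program and strand setting were not given in the sources used here. Overlapping and antisense genes therefore cannot be told apart. No library pair agreed within sampling noise (66 pairs, lowest chi-square per degree of freedom 6.18).

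Transcript rows were summed per symbol, genes were filtered with filterByExpr (minimum count 10), and TMM factors (0.97 to 1.039) scaled the libraries. Groups were compared with edgeR 4.0.16 (quasi-likelihood F test), fitted once to the 12 libraries together (8 residual degrees of freedom), with a biological coefficient of variation of 15.7%. P-values were adjusted by Benjamini-Hochberg over 14541 genes, and calls are at 0.05. Every adjusted p is from edgeR unless another tool is named, and errors of log2 fold changes are standard errors from the F statistic. CPM uses the TMM-scaled library sizes. A count of 0 allows up to 3 counts (0.191 to 0.322 CPM), for counting error only. P-values weigh a difference against the spread between mice within groups, pooled over all 4 groups and not taken from the 2 groups compared alone.

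Transcript lengths and GC content are from GENCODE M21, coordinates from RefSeq (GRCm38.p6), counted from 1. Alternatives were DESeq2 1.42.0 size factors and Wald test, limma-voom (3.58.1), upper-quartile factors, 2 other filters, 2-group fits, the most abundant transcript, GC and length offsets, Malat1 or Ttr as covariate, and fits without single libraries. The edgeR script was checked on simulated data. Members, gene lists and tests were chosen with earlier results of these data known. Named are the members called, the 3 with the smallest p where none was called, 17 genes fixed for their roles, the extremes of level, and up to 2 called genes per partner list. Other called partners and other members were named after their values were seen. 1 gene of the marker lists is not reported here.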

Additional observations from a re-analysis of the deposited data

How the results depend on the processing

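In SS against C the 9 calls became 4 with the most abundant transcript per gene and 26 (24 higher, 2 lower) without C mouse 2 and SS mouse 18. They became 0 in a fit of these groups alone, with GC and length offsets or with Malat1 as a covariate. The share of all genes called without both mice is not given here, so the 26 calls are not read as a result about the members. Without SS mouse 18 alone, 13.6% of all genes were called higher and 12.2% lower. The members' median was 0.14 with GC and length offsets, -0.0036 with Malat1 and -0.0098 with SS mouse 18 alone, against 0.27. Leaving out 1 mouse gave 0 to 33 calls and medians of 0.19 to 0.35. In SES against SS the 0 calls became 11 without C mouse 2 and SS mouse 18 and 0 to 10 with 1 mouse left out, and the median was 0.029 with Ttr as a covariate and 0.18 with SS mouse 18 alone. In SER against SS these were 13 calls, 0 to 13 calls and a median of 0.20 with SS mouse 18 alone. In SES against C, DESeq2 gave 4 calls, the fit of these groups alone 1, and the fit without C mouse 2 and SS mouse 18 gave 4. Leaving out 1 mouse gave 0 to 4, and the median was 0.061 with GC and length offsets and -0.010 with Malat1. In SER against C the 1 call became 2 with DESeq2 size factors or a CPM of 1 in 3 libraries and 6 with DESeq2's test. It became 4 with Ttr, 3 without C mouse 2 and SS mouse 18, and 0 to 6 with 1 mouse left out. It became 0 with the most abundant transcript, GC and length offsets (median 0.059) or Malat1 (median 0.0093). The share of all genes called is given further above for only some of these alternatives. Where it is not given, a change in the member count cannot be told apart from a change over all genes. SES against SER kept 0 calls in every alternative run.

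Signs turned where mouse 18 alone stood for SS for Setd1a (0.10 in SES and 0.10 in SER against SS) and Kmt2b (0.23 in SES against SS), and for Arid5a in SES against SER with its most abundant transcript (0.71). The cause of these shifts was not tested. Where 1 SS mouse is left, it is assumed to vary like the other groups. No paired analysis was possible because the mouse numbers name animals and any pair of groups shares at most 1 number. With 3 mice a group, the number of mice limits the size of change that can be called.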
